A study of Mus musculus with 2 samples.

Results

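The expression of 10 genes of the alpha- and beta-tubulin families was followed by cell class, hepatocyte state and library in single-cell RNA-seq data of mouse liver. They were the rows whose symbol was Tuba1a, Tuba1b, Tuba1c, Tuba4a, Tuba8, Tubb2a, Tubb2b, Tubb4b, Tubb5 or Tubb6, and all 10 were found in both libraries among 32285 listed genes. There were 2 libraries of 10x Genomics chemistry, in which each captured RNA molecule carries a unique molecular identifier (UMI). One came from WT littermates and one from miR-33 HKO mice, which lack the microRNA miR-33 in hepatocytes and whose genotype is labelled AlbCRE, a Cre recombinase driven by the albumin promoter. Mice of both genotypes were given CD-HFD, a choline-deficient high-fat diet that produces steatohepatitis (MASH), for 6 months from the age of 8 weeks, and each library was a pool of 3 livers. Livers were digested by collagenase perfusion. With 1 library per genotype, a difference between WT and HKO had no animal-to-animal spread beside it, and no test was made. Intervals are 95% intervals of the counting error alone.

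Alpha- and beta-tubulin form the dimers that polymerize into microtubules, the tracks along which hepatocytes move vesicles, lipoproteins and secreted plasma proteins. Each subunit is encoded by several genes with nearly the same protein and different tissue patterns. Cells adjust tubulin mRNA to the amount of free tubulin. The protein TTC5 recognizes the first amino acids of a tubulin as they leave the ribosome, and with SCAPER and the CCR4-NOT complex it leads to decay of that mRNA. The signal therefore lies in the first codons of the message.

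The first 30 coding bases are shown for the members for which this stretch was read from GENCODE M21 transcripts (GRCm38), because the first 4 codons, in capitals, encode the stretch that TTC5 reads.
Tuba1a: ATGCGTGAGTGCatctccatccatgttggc
Tuba1b: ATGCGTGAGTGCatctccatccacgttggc
Tuba1c: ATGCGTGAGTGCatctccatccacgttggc
Tuba4a: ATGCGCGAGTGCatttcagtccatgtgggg
Tuba8: ATGAGGGAATGCatatcggtccatgtgggt
Tubb2a: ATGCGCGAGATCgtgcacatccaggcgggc
Tubb2b: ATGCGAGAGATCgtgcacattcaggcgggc
Tubb4b: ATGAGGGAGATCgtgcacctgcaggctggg
Tubb5: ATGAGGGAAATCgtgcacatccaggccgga
Tuba1a, Tuba1b and Tuba1c shared the same 12 bases, while Tuba4a, Tuba8 and each of the 4 beta genes had its own version. The microRNA deleted in HKO hepatocytes is shown for comparison, with its seed, bases 2 to 8, in capitals (RefSeq, GRCm38.p6).
miR-33-5p: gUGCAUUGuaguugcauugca
The 7 bases that pair with this seed, CAATGCA, were found in the annotated 3′UTR of 0 of the 10 members and in 6.18% of 21606 genes. The members' 3′UTRs ran from 101 bases in Tuba1c to 1394 bases in Tuba4a, against a median of 739 bases over those genes.

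In GRCm38, Tubb2a (chromosome 13, 34074274 to 34078007, minus strand) and Tubb2b (chromosome 13, 34126748 to 34130466, minus strand) were neighbours. Tuba1b (98931425 to 98934565, minus strand), Tuba1a (98949837 to 98953703, minus strand) and Tuba1c (99029891 to 99038110, plus strand) lay side by side on chromosome 15. The others stood alone: Tuba4a on chromosome 1 (75214228 to 75219865, minus strand), Tubb4b on chromosome 2 (25222160 to 25224702, minus strand), Tuba8 on chromosome 6 (121210696 to 121226854, plus strand), Tubb5 on chromosome 17 (35833921 to 35838306, minus strand) and Tubb6 on chromosome 18 (67390717 to 67402749, plus strand). All were protein-coding, with 4 exons in the transcript used here and 5 in Tuba8. The coding sequences of Tuba1a and Tuba1b were 98.3% identical, those of Tuba1b and Tuba1c 98.4%, and those of Tubb2a and Tubb2b 96.5%. Of the 90-base windows in the last 500 bases of a transcript, 65.0% in Tuba1c, 60.1% in Tuba1b, 52.1% in Tuba1a, 25.8% in Tubb2a and 12.7% in Tubb4b also occurred in a transcript of another gene, pseudogenes included. No such window was shared in Tuba4a, Tuba8, Tubb2b, Tubb5 or Tubb6. The split of reads among the 3 Tuba1 genes, and in part the counts of Tubb2a and Tubb4b, are therefore uncertain, and the options by which shared reads were counted are not given in the sources used here.

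The RefSeq table of promoters, 250 bases before to 50 after a gene's start, held 8 of the 10 members. The letters GGGCGG, which Sp1 is known to bind, occurred on either strand in 6 of the 8, against 35.7% of all promoters. CCAAT occurred in 4 of 8 (37.4% of all), TATAAA in Tubb2a and Tubb4b (13.6%), CACGTG in Tuba8 and Tubb5 (7.15%), and TGACGTCA, the palindrome bound by CREB, in Tubb2a (1.79%). TCACNNCAC, a form of the SREBP element, occurred in 0 of 8 (3.77%). No 2 of these motifs contain one another. These are matches of letters and not sites of binding.

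Depth differed, with 130451427 UMIs over 30078 barcodes in the WT library against 52563185 over 20000 in that of HKO. Classes were rebuilt from marker genes, since cell labels were not used here. They gave 1909 WT and 3697 HKO hepatocyte-like barcodes, with a median of 20380 and 4251 UMIs. They were set apart by depth and by the absence of markers of other classes. Alb, Apoa1, Ttr and 8 other hepatocyte markers made up 86249 CPM (UMIs per 1000000 UMIs of the class) in WT against 75283 CPM in HKO. Most other barcodes, 20171 in WT and 10310 in HKO, lay near the commonest depth of their library with mainly hepatocyte RNA, and are called barcodes of free RNA depth. The same hepatocyte markers made up 85950 CPM of these in WT and 73894 CPM in HKO, so they do not separate the 2 groups. Hemoglobin and Alas2, 5 erythroid markers, made up 738 CPM of the WT and 2487 CPM of the HKO hepatocyte-like sums. Markers of the other classes were present there too, each list summed in WT and then HKO. The 15 T and NK markers, all above 0, summed to 15.3 and 30.6 CPM, the 11 B and plasma markers (1 at 0 in HKO) to 9.51 and 66.4 CPM, the 8 neutrophil markers (1 at 0 in HKO) to 1.41 and 14.5 CPM, and the 13 monocyte and dendritic markers (2 at 0 in HKO) to 7.24 and 9.21 CPM. The 12 macrophage markers summed to 132 and 173 CPM, the 12 endothelial markers to 44.3 and 53.8 CPM, the 12 stellate markers to 13.4 and 27.1 CPM, and the 9 cholangiocyte markers (1 at 0 in each library) to 383 and 241 CPM. The part of these markers in the results was not tested. The names of WT barcodes were not analysed here, so barcodes shared by the libraries were not counted.

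In hepatocyte-like barcodes, the tubulin genes were lower in HKO than in WT. Together the 10 genes gave 21987 UMIs in WT, or 449 CPM (443 to 455), and 5454 UMIs in HKO, or 208 CPM (202 to 213). The ratio of HKO to WT was 0.463 (0.449 to 0.477). The members were chosen by name, with the level of Tubb2a in these same hepatocytes, lower in HKO, already known. The contrast is therefore a description and supports nothing by itself. A mean of at least 10 CPM was reached by 6 members. Of these, 5 were at least 1.5-fold lower in HKO, as were 4.31% of 7084 genes measured at that level, and 4 were at least 2-fold lower, as were 0.918% of those genes. The median log2 ratio was -1.07 over the 6 members and -0.03 over the 7084 genes.

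Among the beta genes, Tubb2a, a subunit known mainly from nervous tissue, was the most abundant member in WT hepatocyte-like barcodes and had the lowest ratio of the 6. It had 6204 UMIs in WT, or 127 CPM (123 to 130), and 1072 UMIs in HKO, or 40.8 CPM (38.4 to 43.3). The ratio was 0.322 (0.302 to 0.344), the 9th lowest of 7084 genes. Tubb4b, a broadly expressed subunit that is also part of cilia, had 3436 UMIs in WT (70.1 CPM, 67.8 to 72.5) and 1152 in HKO (43.8 CPM, 41.3 to 46.4), a ratio of 0.625 (0.584 to 0.669). Tubb5, the beta subunit found in most cell types, changed least of the measured members. It had 1384 UMIs in WT (28.2 CPM, 26.8 to 29.8) and 527 in HKO (20.1 CPM, 18.4 to 21.8), with a ratio of 0.710 (0.641 to 0.786). Both lay near the limit of 1.5-fold: Tubb4b was at 0.675 with barcodes weighted equally and Tubb5 at 0.601 with barcodes thinned to 1000 UMIs. Tubb6 lay below 10 CPM, with 364 UMIs (7.43 CPM) in WT and 96 (3.65 CPM) in HKO and a ratio of 0.492 (0.389 to 0.618). Tubb2b had 6 UMIs in WT and 1 in HKO, which gave a ratio of 0.311 whose interval (0.00676 to 2.56) spanned 1.

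Among the alpha genes, Tuba1c and Tuba4a carried most of the signal. Tuba1c, widely expressed, had 5040 UMIs in WT (103 CPM, 100.0 to 106) and 1233 in HKO (46.9 CPM, 44.3 to 49.6), with a ratio of 0.456 (0.428 to 0.486). Tuba4a, whose protein is made without the terminal tyrosine that most alpha-tubulins carry, had 4657 UMIs in WT (95.0 CPM, 92.3 to 97.8) and 1127 in HKO (42.9 CPM, 40.4 to 45.5). Its ratio of 0.451 (0.423 to 0.482) was close to that of Tuba1c. Tuba1b, the alpha subunit of most dividing cells, had 859 UMIs in WT (17.5 CPM, 16.4 to 18.7) and 229 in HKO (8.72 CPM, 7.62 to 9.92), a ratio of 0.497 (0.428 to 0.576), which was 0.786, short of 1.5-fold lower, with each barcode thinned to 1000 UMIs. Tuba1a, the main alpha gene of neurons, had 14 and 5 UMIs and a ratio of 0.666 (0.188 to 1.96). Tuba8, a divergent alpha gene, had 23 and 12 UMIs, or 0.469 and 0.457 CPM, and a ratio of 0.973 (0.441 to 2.04). A difference in Tuba1a, Tuba8 or Tubb2b was not detectable at this depth.

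**Figure D1:**
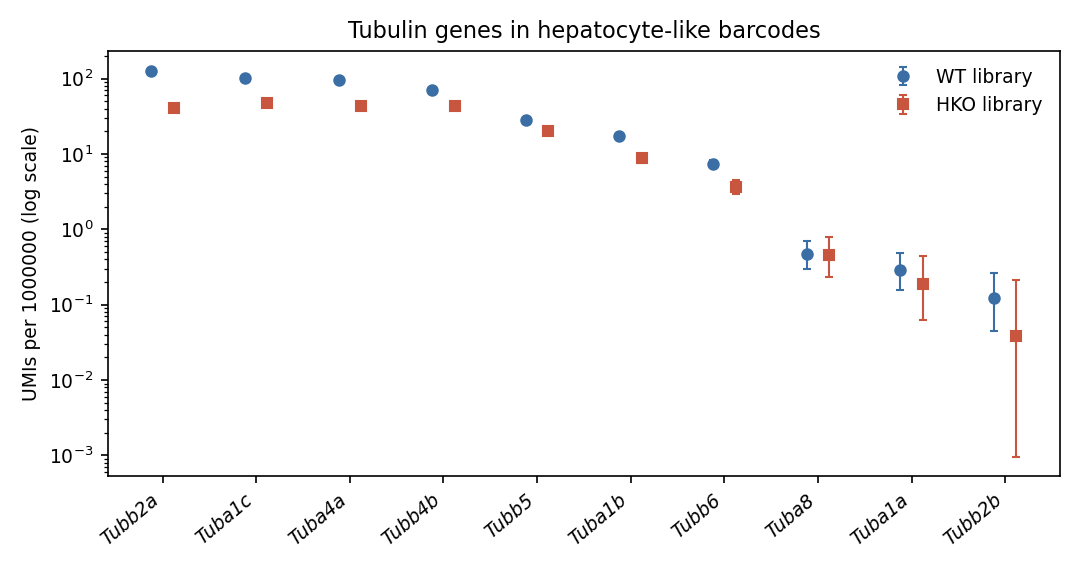
UMIs per 1000000 UMIs (log scale) of each of the 10 tubulin genes in hepatocyte-like barcodes of the WT library (circles) and the HKO library (squares), with 95% Poisson intervals for counting error. The 7 genes from Tubb2a (127 against 40.8 CPM) to Tubb6 (7.43 against 3.65 CPM) lie lower in HKO with intervals apart, while those of Tuba8, Tuba1a and Tubb2b overlap.

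The order of the levels differed between the libraries. In WT, Tubb2a was followed by Tuba1c, Tuba4a, Tubb4b, Tubb5, Tuba1b and Tubb6, and the counting intervals of neighbours in this order did not overlap. In HKO, Tuba1c came first, followed by Tubb4b, Tuba4a and Tubb2a, and the interval of each of these overlapped that of the next. As a share of all UMIs of the 10 genes in hepatocyte-like barcodes, Tubb2a took 28.2% (27.6 to 28.8, Clopper-Pearson) in WT and 19.7% (18.6 to 20.7) in HKO. The share of Tubb4b was 15.6% in WT and 21.1% in HKO, and that of Tubb5 was 6.29% and 9.66%.

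At equal depth the lower level was spread over barcodes. Hepatocyte-like barcodes with at least 5000 UMIs were thinned to 5000 UMIs each, which kept 1909 WT and 1656 HKO barcodes and left out 2041 HKO barcodes. A WT barcode then had a mean of 2.16 tubulin UMIs and a median of 2, and an HKO barcode a mean of 1.05 and a median of 1. None was seen in 16.9% of WT and 39.7% of HKO barcodes. The 1% of barcodes with most tubulin UMIs held 4.13% of them in WT and 7.04% in HKO. At least 1 UMI of Tubb2a was found in 42.8% of WT barcodes (40.6 to 45.1) and 16.9% of HKO barcodes (15.1 to 18.8), against 77.3% and 18.4% of all hepatocyte-like barcodes before thinning. The members hardly varied together from barcode to barcode, with Pearson's r from -0.03 to 0.11 over the 21 pairs of the members other than Tuba1a, Tuba8 and Tubb2b, in these sparse counts.

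**Figure D2:**
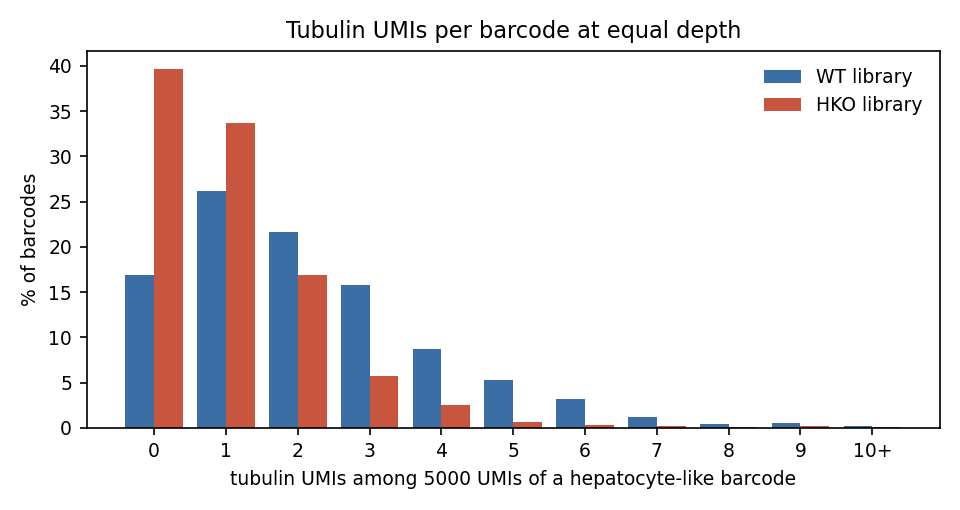
Percent of hepatocyte-like barcodes with each number of tubulin UMIs (10 genes summed) after each barcode was thinned to 5000 UMIs, for 1909 WT and 1656 HKO barcodes. The HKO bars are highest at 0 (39.7%) and the WT bars at 1 (26.1%), and the WT bars are the higher ones from 2 UMIs upward.

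Hepatocytes differ along the lobule, with Glul, Oat and Cyp2e1 toward the central vein and Hal, Sds and Cyp2f2 toward the portal tract. Barcodes were divided within each library into tertiles by the share of pericentral UMIs among the pericentral and periportal UMIs of 24 listed genes, and 114 HKO barcodes with fewer than 10 such UMIs were left out. The tertiles are ranges of a score and not cell types, and 439 WT and 559 HKO barcodes lay within 2 percentage points of a boundary. This score did not use the tubulin genes. The values by state are per 1000000 UMIs not encoded by mitochondria, so that mitochondrial UMIs do not enter the total. In WT the 10 genes summed to 416 (406 to 427) in the periportal, 538 (525 to 551) in the middle and 586 (575 to 598) in the pericentral tertile. In HKO the sums were 188 (180 to 197), 266 (252 to 281) and 306 (293 to 319). Both libraries thus showed more tubulin UMIs toward the central vein, with a pericentral to periportal ratio of 1.41 (1.36 to 1.46) in WT and 1.63 (1.53 to 1.73) in HKO. In every tertile the HKO level lay below the WT level. The boundaries were at 7.33% and 24.2% pericentral UMIs in WT and at 7.32% and 29.6% in HKO, so the upper ranges were not the same in both. The median depth of the periportal and pericentral tertiles was 22734 and 23784 UMIs in WT, and 8584 and 3720 UMIs in HKO. Their median mitochondrial share was 15.5% and 8.94% in WT and 14.1% and 8.24% in HKO, and the nuclear RNAs Malat1 and Neat1 summed to 11576 and 4682 in WT and 8285 and 5041 in HKO, per 1000000 non-mitochondrial UMIs. On the same scale the 10 genes in WT summed to 613 in barcodes below 5% and 399 in those above 20% mitochondrial UMIs, and the part of both measures in the zonation was not tested.

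Tubb2a was zonated unequally in the libraries. Its WT level was 125 in the periportal and 160 in the pericentral tertile, per 1000000 non-mitochondrial UMIs, a ratio of 1.27 (1.20 to 1.35). In HKO the levels were 27.4 and 69.8 and the ratio was 2.55 (2.19 to 2.96), so the counting intervals of the ratios did not overlap. With HKO barcodes limited to at least 5000 UMIs, where the median depths of the periportal and pericentral tertiles were 11597 and 10988, the HKO ratio was 2.68 (2.28 to 3.15). Seen the other way, the HKO to WT ratio of Tubb2a, in CPM, was 0.220 (0.194 to 0.250) in the periportal, 0.381 (0.335 to 0.431) in the middle and 0.423 (0.383 to 0.467) in the pericentral tertile. With HKO barcodes limited to at least 5000 UMIs, Tubb6 had a pericentral to periportal ratio of 2.75 (1.63 to 4.69), from 26 and 40 UMIs, and Tuba4a one of 1.27 (1.08 to 1.49), below its interval in WT. Tuba1a, with 2 and 7 UMIs in WT and 2 and 2 in HKO, was too rare for a ratio to be read. Over all hepatocyte-like barcodes, the intervals of the libraries overlapped for the other members that had UMIs in both tertiles of both libraries. The pericentral to periportal ratio of Tuba4a was 1.67 (1.55 to 1.80) in WT and 1.44 (1.25 to 1.65) in HKO, that of Tubb4b 1.49 (1.37 to 1.62) and 1.64 (1.44 to 1.88), that of Tubb5 1.45 (1.28 to 1.65) and 1.57 (1.29 to 1.93), and that of Tuba1c 1.31 (1.22 to 1.40) and 1.27 (1.11 to 1.44). Tubb6 had ratios of 1.59 (1.24 to 2.05) and 2.16 (1.31 to 3.59) and Tuba1b of 1.35 (1.14 to 1.59) and 1.32 (0.954 to 1.81).

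Tuba8 was rare but lay mostly at the pericentral end. Of its 23 WT UMIs, 18 were in the pericentral and 2 in the periportal tertile, a ratio of levels of 8.10 (1.94 to 72.0). Of its 12 HKO UMIs, 10 and 1 were in these tertiles, a ratio of 14.9 (2.12 to 646). Barcodes rich in Glul, the glutamine synthetase of the hepatocytes next to the central vein, had at least 3 Glul UMIs and at least 1 per 1000 UMIs, and there were 31 in WT and 175 in HKO. They held 6 Tuba8 UMIs in WT and 7 in HKO. This was 36.6 times (7.82 to 226) the level of the middle tertile in WT and 32.4 times (4.17 to 1462) in HKO. At least 1 Tuba8 UMI was present in 1.10% of all WT and 0.298% of all HKO hepatocyte-like barcodes, which differ in depth. With barcodes thinned to 5000 UMIs it was present in 0.210% in WT and 0.242% in HKO, or 4 barcodes in each library. In barcodes of free RNA depth, Tuba8 was at 0.947 CPM in WT against 0.691 CPM in HKO, so its count in any one barcode is not read as expression. The 10 genes summed to 607 (549 to 669) in Glul-rich barcodes of WT and 366 (331 to 404) in those of HKO, per 1000000 non-mitochondrial UMIs.

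The level also moved with the mitochondrial share of a barcode. Below 5% mitochondrial UMIs, the 10 genes summed to 613 in WT and 286 in HKO per 1000000 non-mitochondrial UMIs, from 5% to 20% to 473 and 229, and above 20% to 399 and 216. The level of Tuba4a above 20% was 0.440 times (0.401 to 0.483) that below 5% in WT and 0.683 times (0.565 to 0.823) in HKO, and that of Tubb4b 0.547 times (0.487 to 0.613) and 0.553 times (0.448 to 0.678). Tubb2a was at 0.864 times (0.804 to 0.927) and 0.775 times (0.648 to 0.924). The members were not alike in this, since in WT the intervals of Tuba4a and Tubb2a did not overlap. In HKO, Tuba1c was at 0.984 times (0.834 to 1.16), Tubb5 at 0.810 times (0.591 to 1.10) and Tubb6 at 1.84 times (0.905 to 3.76). These HKO intervals spanned 1. In WT, Tuba1c was at 0.744 times (0.685 to 0.807), Tubb5 at 0.564 times (0.468 to 0.675) and Tubb6 at 0.731 times (0.524 to 1.01). By depth, the sums were 572 and 266 from 5000 to 10000 UMIs, 454 and 222 from 10000 to 20000, and 521 and 226 above 20000. HKO was lower in each range that both libraries filled. Over the thinned barcodes, the Pearson correlation of the tubulin UMIs with log depth was -0.03 in both libraries, with the pericentral share 0.09 in WT (1909 barcodes) and 0.18 in HKO (1655 barcodes), and with the mitochondrial share -0.37 and -0.22. The sign of the last is in part set by the thinning, which counted mitochondrial UMIs. The part of the mitochondrial share in these levels was not tested.

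**Figure D3:**
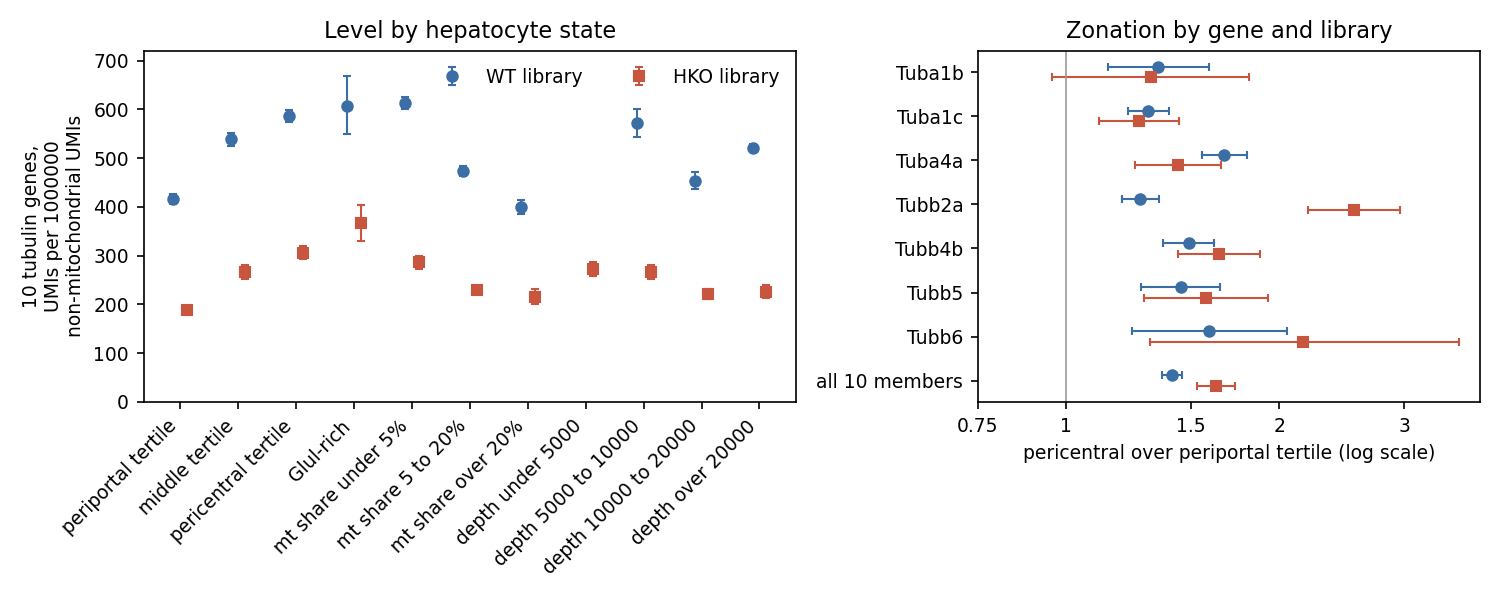
Left, UMIs of the 10 tubulin genes per 1000000 non-mitochondrial UMIs in each range of hepatocyte-like barcodes (tertiles of the pericentral share, Glul-rich, mitochondrial (mt) share, depth) for WT (circles) and HKO (squares). Right, pericentral over periportal ratio (log scale) of each gene. Bars are 95% counting intervals. HKO lies lower in every range that both libraries filled, and the ratio of Tubb2a is 1.27 in WT and 2.55 in HKO.

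Of the genes that fold tubulin, modify it or use microtubules, those measured had median ratios near that of all genes in hepatocyte-like barcodes. Of 20 genes of the prefoldin, chaperonin and tubulin cofactor group, 19 were measured and 0 were 1.5-fold lower or higher, with a median log2 ratio of -0.10. Over all 7084 genes measured, 4.31% were at least 1.5-fold lower and 2.46% at least 1.5-fold higher, so a list of this length holds few such genes in any case. Its members of highest mean level were Tbca, a cofactor that holds beta-tubulin, with a ratio of 1.35, and Pfdn5, a prefoldin subunit, with 1.15. Microtubule-associated proteins (15 of 21 measured) had 0 genes past 1.5-fold in either direction and a median of -0.11. The most abundant were Map7, which recruits kinesin, with a ratio of 0.850, and Mapre3, a plus-end binding protein, with 0.742. The modifying enzymes (4 of 16) likewise had 0, with a median of 0.12. The deacetylase gene Sirt2 had a ratio of 1.04 and Ttll5, which encodes a polyglutamylase, of 1.26. Of the motors (12 of 16), 1 was higher, the dynein intermediate chain gene Dync1i2, at 67.7 CPM in WT against 113 CPM in HKO, which gave a ratio of 1.66 (1.58 to 1.75). The median of the motors was 0.01. The gamma-tubulin complex (4 of 9) had a median of -0.05, with Nedd1 at 0.942 and Mzt2 at 0.996. Its Tubg1, the gamma-tubulin that nucleates microtubules, was the 1 measured gene among 10 other tubulin genes, at 13.7 and 12.4 CPM and a ratio of 0.912 (0.796 to 1.04), and the delta-tubulin gene Tubd1 was at 2.37 and 2.28 CPM. Of 3 genes of the mRNA decay pathway, Scaper was measured, with a ratio of 0.840 (0.767 to 0.918), while Ttc5 was at 5.65 and 5.97 CPM and Cnot11 at 9.49 and 7.69 CPM. The actin cytoskeleton (15 of 17) had 0 genes past 1.5-fold and a median of -0.02. Its most abundant genes were lower in HKO, the beta-actin gene Actb with a ratio of 0.793 (0.781 to 0.805) and the gamma-actin gene Actg1 with 0.756 (0.736 to 0.776). These lists were chosen with results of these data known.

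Other groups did move apart between the libraries. Of 14 immediate early and dissociation genes, 11 were measured and 5 were at least 1.5-fold lower in HKO, against 4.31% of all 7084 genes. Their median log2 ratio was -0.58. The ratio was 0.487 for Nr4a1, a nuclear receptor induced within minutes of stimulation, 0.530 for Dusp1, a phosphatase induced by stress, and 0.604 and 0.608 for the transcription factors Klf6 and Atf3. Of 12 pericentral genes, 11 were measured, 0 were lower and 5 higher (2.46% of all 7084 genes were at least 1.5-fold higher), with a median of 0.33. The highest ratios were 3.95 for Oat, 2.97 for Slc1a2, 2.54 for Lhpp and 2.25 for Glul. Of 12 periportal genes, 1 was at least 1.5-fold higher, the sulfotransferase gene Sult5a1 with a ratio of 1.72, and 0 were at least 1.5-fold lower, although Cps1, the first enzyme of the urea cycle, had a ratio of 0.675. Below 1 lay 7 of the 12 ratios, and their median log2 ratio was -0.04. The 10 proliferation genes were all below 10 CPM, summing to 9.81 CPM in WT against 12.5 CPM in HKO, with Birc5 at 1.82 and 2.59 CPM and Top2a at 1.37 and 1.75 CPM. Whether the immediate early genes or the pericentral share had a part in the tubulin difference was not tested.

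**Figure D4:**
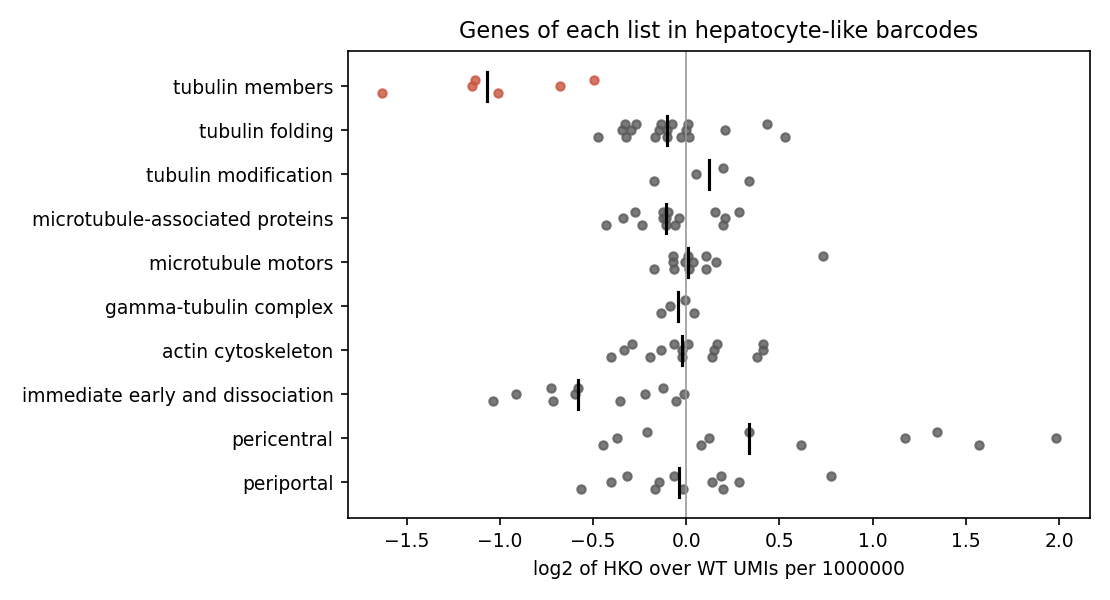
Log2 ratio of HKO to WT in hepatocyte-like barcodes for each measured gene (mean of at least 10 CPM, points) of 10 gene lists, with the median of each list as a black bar. The 6 tubulin members, with a median of -1.07, lie to the left of 0, while the folding, modifying, associated, motor, gamma-tubulin and actin lists are centred between -0.11 and 0.12.

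Other genes were ranked by how their UMIs varied with those of the tubulins over thinned hepatocyte-like barcodes, with the 10 members left out. Of 4605 genes ranked by the mean Pearson r over the libraries, the highest were Gstm1 (0.29), Ftl1 (0.27), Dbi (0.27), Prdx1 (0.26), S100a10 (0.25), Cyb5a (0.25), Gsta3 (0.24), Uqcrq (0.24), Fth1 (0.24) and Aldh2 (0.24). The barcodes were thinned with their mitochondrial UMIs, so a barcode with more of these had fewer UMIs of every other gene, which by itself gives positive correlations among these. All points of a library share its preparation, and abundant genes give higher values in sparse counts. These 10 genes did not share the tubulin difference between libraries, with HKO to WT ratios from 0.989 for Gstm1 to 1.31 for Ftl1.

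Outside hepatocytes the difference was not uniform among the members. Barcodes of free RNA depth, which carry mainly hepatocyte transcripts, had 656 CPM (649 to 663) of the 10 genes in WT and 229 CPM (220 to 239) in HKO, which gave a ratio of 0.349 (0.335 to 0.364). All 6 members measured there were at least 1.5-fold lower in HKO, as were 14.3% of 6972 genes. Tubb2a had the lowest ratio, with 162 CPM in WT, 33.3 CPM in HKO and 0.205 (0.183 to 0.229). The summed level at free RNA depth was above that of the hepatocyte-like barcodes of the same library, which was 449 CPM in WT against 208 CPM in HKO. Free RNA can enter any droplet, so the levels in the other classes are given beside an expected count. This count is the UMIs expected if the Alb of the class came from the barcodes of free RNA depth of the same library. Those barcodes were set by depth and the absence of other markers, and whether they hold only free RNA was not tested.

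In T and NK-like barcodes (118 in WT, 473 in HKO), the 10 genes summed to 552 CPM (499 to 608) in WT against 336 CPM (304 to 370) in HKO. The ratio was 0.609 (0.530 to 0.700). Of 7 measured members, 5 were at least 1.5-fold lower in HKO, as were 16.6% of 7742 genes. Tubb5 was the most abundant and did not differ detectably, with 97 UMIs (132 CPM) in WT, 146 UMIs (118 CPM) in HKO and a ratio of 0.899 (0.691 to 1.17). These counts were 8.38 and 25.2 times those expected from free RNA. Tuba1b, with 38 and 69 UMIs and a ratio of 1.08 (0.720 to 1.66), was at 4.06 and 17.95 times. Tubb2a, with 43 UMIs (58.4 CPM) in WT and 13 UMIs (10.6 CPM) in HKO, had a ratio of 0.181 (0.0891 to 0.342). Its counts were 0.826 and 1.13 times those expected, so Tubb2a was at the level of free RNA in both libraries and is read as background there. Tuba1c (0.370), Tubb4b (0.505) and Tuba4a (0.589) lay between, at 1.18 to 1.81 times the free RNA in WT and 2.44 to 3.54 times in HKO. Tuba1a had 24 UMIs (32.6 CPM) in WT and 20 (16.2 CPM) in HKO, with a ratio of 0.498 (0.261 to 0.940), at 176 and 147 times the free RNA. With the free RNA subtracted, the summed ratio was 0.766 in place of 0.609, and Tuba4a turned to the higher level in HKO, with 25.03 CPM left in WT and 47.1 CPM in HKO.

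Endothelial-like barcodes (58 in WT, 112 in HKO) gave a like picture. The summed level was 618 CPM (548 to 694) in WT against 357 CPM (305 to 415) in HKO, and the ratio was 0.578 (0.475 to 0.702). Of 6 measured members, 4 were at least 1.5-fold lower, as were 16.3% of 5431 genes. Tubb5 led again, with 72 UMIs (156 CPM) in WT, 78 UMIs (167 CPM) in HKO and a ratio of 1.07 (0.766 to 1.49), at 12.2 and 46.6 times the free RNA. With the free RNA subtracted its direction turned, with 218 CPM left in WT and 205 CPM in HKO. Tuba1b had 54 UMIs (117 CPM) in WT and 38 (81.2 CPM) in HKO, at 11.3 and 34.2 times the free RNA, and its ratio of 0.694 (0.446 to 1.07) had an interval that spanned 1. Tuba1a, almost absent from hepatocyte-like barcodes, had 22 UMIs (47.7 CPM) in WT and 10 (21.4 CPM) in HKO, with a ratio of 0.448 (0.190 to 0.987). It was at 316 and 254 times the count expected from free RNA. Tubb4b had 47 UMIs in WT and 23 in HKO, with a ratio of 0.483 (0.280 to 0.811), at 2.86 and 5.75 times the free RNA. Tubb2a, with 32 and 6 UMIs, Tuba1c, with 34 and 5, and Tuba4a, with 21 and 6, were between 0.715 and 1.81 times the free RNA.

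**Figure D5:**
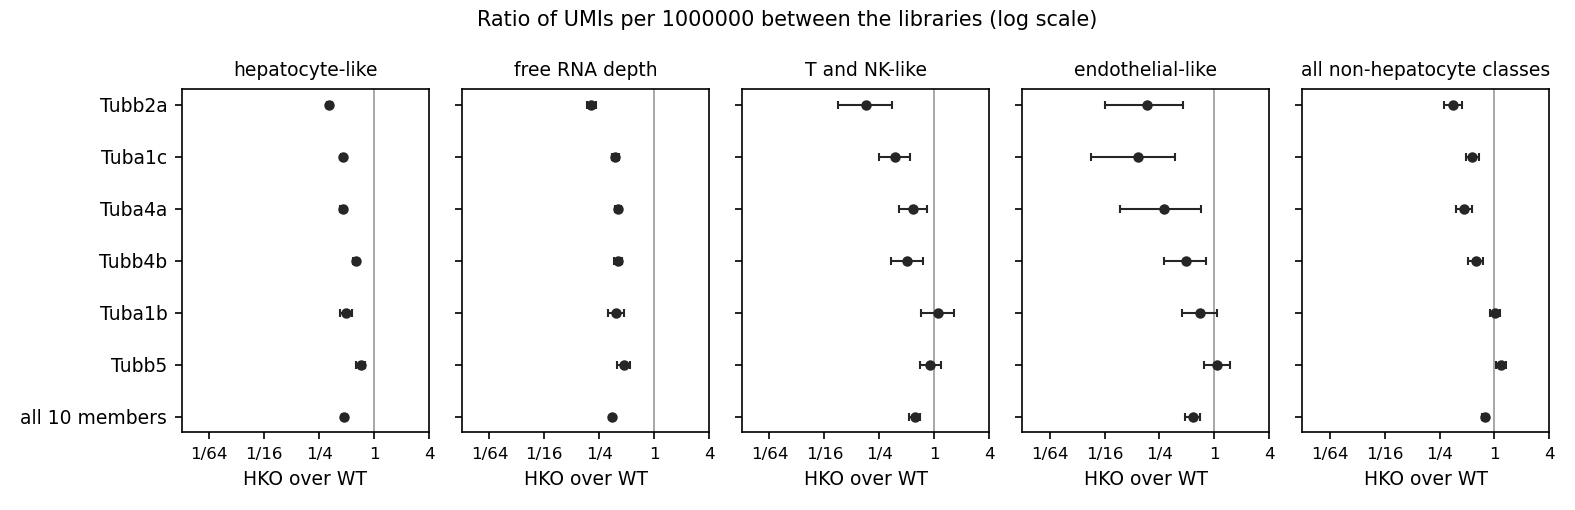
Ratio of HKO to WT CPM (log scale) for 6 tubulin genes and for all 10 summed, in hepatocyte-like barcodes, barcodes of free RNA depth, T and NK-like, endothelial-like and all non-hepatocyte barcodes, with 95% counting intervals. Every gene lies left of 1 in the panels of hepatocyte-like barcodes and free RNA depth, while Tubb5 lies at 0.899 in T and NK-like barcodes and at 1.07 in endothelial-like ones.

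The remaining classes had fewer than 50 WT barcodes, and their WT and HKO levels are given side by side with no ratio. The 10 genes summed to 564 CPM (489 to 647) in WT and 691 CPM (639 to 745) in HKO in macrophage-like barcodes, where HKO was the higher, and to 497 CPM (426 to 576) and 485 CPM (423 to 554) in monocyte and dendritic-like barcodes, where the levels were close. The sums were 545 CPM (453 to 650.2) and 301 CPM (251 to 359) in B and plasma-like, 1020 CPM (857 to 1204) and 372 CPM (303 to 452) in cholangiocyte-like, and 542 CPM (357 to 789) and 381 CPM (272 to 519) in stellate-like barcodes. In macrophage-like barcodes (19 in WT, 93 in HKO), Tuba1b was at 187 CPM (145 to 238) and 178 CPM (152 to 206), and Tubb5 at 126 CPM (91.6 to 168) and 244 CPM (214 to 277). Tubb6 was at 33.5 and 40.3 CPM there, above its 7.43 and 3.65 CPM in hepatocyte-like barcodes. These counts were 34.0 and 207 times the free RNA for Tuba1b, 18.4 and 188 times for Tubb5, and 21.1 and 204 times for Tubb6. In monocyte and dendritic-like barcodes (38 and 110), Tubb6 was at 36.7 and 44.5 CPM and Tubb5 at 104 and 156 CPM, or 14.3 and 79.4 times and 9.45 and 42.5 times the free RNA. In B and plasma-like barcodes (33 and 167), Tubb5 was at 57.6 and 94.0 CPM, or 3.75 and 18.7 times the free RNA. Cholangiocyte-like barcodes (7 and 23), the ciliated cells of the bile ducts, held 8 of the 8 WT and 3 of the 9 HKO UMIs of Tubb2b seen outside hepatocytes and free RNA depth. They had Tuba1a at 132 CPM (78.3 to 209) in WT and 18.4 CPM (5.98 to 42.9) in HKO, or 1241 and 185 times the free RNA. Stellate-like barcodes (7 and 29), the source of fibrogenic cells, had Tuba1b at 161 and 95.3 CPM and Tubb5 at 121 and 95.3 CPM, or 13.6 and 33.8 times and 8.23 and 22.5 times the free RNA. Neutrophil-like barcodes (3 and 27) held 7 and 20 tubulin UMIs in all, or 0.987 and 4.39 times the free RNA. Of the sub-clusters with markers of several classes, that of endothelial, macrophage and stellate cells (22 and 91) had 278 and 625 tubulin UMIs, or 696 CPM (616 to 782) and 546 CPM (504 to 591), and that of endothelial and stellate cells (8 and 32) had 94 and 147, or 536 CPM (433 to 655) and 416 CPM (352 to 490). Their counts were 6.32 and 25.6 times and 4.44 and 24.3 times the free RNA. Over all non-hepatocyte classes together, those mixed sub-clusters included and the unnamed left out, which differ in makeup between the libraries, Tubb5 was at 136 CPM (123 to 150) in WT against 160.1 CPM (150 to 171) in HKO, and Tuba1b at 109 CPM (97.8 to 121) and 110.3 CPM (102 to 119), or 11.8 and 52.4 times and 11.7 and 54.3 times the free RNA. The family thus had a different composition by class, led in WT by Tubb2a, Tuba1c and Tuba4a in hepatocyte-like barcodes and by Tubb5 and Tuba1b in the pooled non-hepatocyte classes.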

How the data were processed

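The authors deposited raw UMI counts for each gene in each barcode. The matrix header names Cell Ranger 7.1.0, and the submitters' processing notes name mm10, R 3.0 and Seurat 3. The annotation and counting options are not given in the sources used here. Barcodes with at least 500 UMIs, 300 genes and at most 50% mitochondrial UMIs were kept (29620 WT, 18247 HKO). Scrublet marked 0 doublets by itself, so the top-scoring 0.8% per 1000 barcodes were removed (7019 and 2664). Leiden clusters (scanpy 1.11.5, igraph 0.11.9) were named from 10 marker lists, with at least 3 markers per class. A cluster with more hepatocyte markers than markers of its own class, or with more genes of another class among its top 10, stayed unnamed. Barcodes without other markers were hepatocyte-like from 2 times the commonest depth of their library, 5141 UMIs in WT and 1626 in HKO, and otherwise of free RNA depth. UMIs were summed per class and library and scaled to 1000000 (CPM). Genes with a mean of at least 10 CPM (outside hepatocyte-like and free RNA barcodes also at least 30 UMIs) were measured. CPM have exact Poisson intervals, ratios exact conditional binomial intervals and shares Clopper-Pearson intervals. The calculation was tested on simulated data. Annotation and transcript sequences were from GENCODE M21 and RefSeq (GRCm38). All 10 members are named, and of each list up to 4 genes of largest change past 1.5-fold, or else the 2 most abundant, and Cps1 was named after its value was seen. The members and lists were chosen with earlier results of these data known.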

Additional observations from a re-analysis of the deposited data

How the results depend on the processing

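The summed tubulin ratio in hepatocyte-like barcodes, 0.463, was 0.385 with no depth minimum, 0.445 and 0.434 with at least 5000 and 10000 UMIs in both libraries, 0.498 with barcodes thinned to 1000 UMIs, 0.511 with barcodes weighted equally, 0.449 with at most 20% mitochondrial UMIs and 0.480 with the free RNA profile subtracted. The other 4 settings gave values within its counting interval. The median log2 ratio, -1.07, was -1.33 with no depth minimum, -0.73 with barcodes thinned to 1000 UMIs and -0.81 with barcodes weighted equally. Between 4 and 6 members were at least 1.5-fold lower under the settings run with that limit. The 6 were reached with no depth minimum and with a mean of at least 1 CPM in place of 10. The share of all genes past the limit is given for the main setting only, 4.31% of 7084 genes. In T and NK-like barcodes the ratio was 0.766 with hepatocyte RNA scaled by Alb subtracted, in endothelial-like barcodes 0.419 when thinned to 500 UMIs, and at free RNA depth 0.407 with median-of-ratios scaling. The cause of these shifts was not tested. The summed ratios lay below 1 under every setting run, but Tuba8, 0.973 in hepatocyte-like barcodes, was 1.37 with barcodes weighted equally, 1.05 with at most 20% mitochondrial UMIs and 1.02 with the free RNA profile subtracted. With hepatocyte RNA subtracted, Tuba4a in T and NK-like barcodes turned to 25.03 CPM in WT and 47.1 CPM in HKO, and Tubb5 in endothelial-like barcodes to 218 and 205 CPM. Tubb2a ranged from 0.267 to 0.342 and Tuba1b from 0.400 to 0.786 in hepatocyte-like barcodes. The limit of at least 5000 UMIs for zonation was chosen after seeing the data. No paired analysis was possible because there was 1 library per genotype, and for the same reason no library could be left out. Depth limits Tuba1a, Tuba8 and Tubb2b to a few UMIs.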

Other observations

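Sub-clusters that met no class rule, 184 barcodes in WT and 363 in HKO, had 529 CPM (483 to 578) of the 10 tubulin genes in WT and 267 CPM (230.3 to 307) in HKO. Their Tubb2a count was 0.860 and 0.991 times that expected from free RNA, and their Tubb5 count 1.88 and 7.71 times. A further sub-cluster with markers of both T and NK and monocyte and dendritic cells, 24 barcodes in WT and 56 in HKO, had 462 CPM (369 to 570) and 353 CPM (275 to 446) of the 10 genes, or 1.81 and 7.54 times the free RNA, with Tubb5 at 91.3 and 101 CPM.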
